A study of Mus musculus with 7 samples.

Results

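The Nr4a orphan receptors are 3 closely related nuclear receptors, Nr4a1 (Nur77), Nr4a2 (Nurr1) and Nr4a3 (Nor1). The 3 genes were taken by their symbols from a table of 35976 gene symbols measured by RNA sequencing of whole adrenal glands, and all 3 were among the 16720 analysed, those whose normalized counts averaged 10 or more over the libraries. The glands came from C57BL/6J mice, an inbred laboratory strain, with no genetic change or treatment named. One library was made from each of 7 pools: E18.5 embryos (40 glands, sex not given), postnatal day 1 (P1) males (16 glands) and females (22 glands), 2-week males and females (6 glands each), and 12-week males and females (4 glands each). The design sets ages against each other and the sexes against each other within an age. Because a pool stands for each group, intervals for single libraries cover counting error only. They leave out differences between pools of the same group, which were not measured. The p-values come from a fit of age and sex in limma. Its error is how far the sexes disagree across the 3 postnatal ages, moderated by the spread of other genes. The calls of the members therefore rest in part on variance taken from other genes.

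Nr4a receptors are immediate early transcription factors: their genes are silent or low at rest and are transcribed within minutes of a stimulus. They have no known natural ligand in the classical sense, so the amount of protein made is a main control of their activity, and they bind DNA as monomers at the NBRE or as dimers at longer sites, with Nr4a1 and Nr4a2 also able to pair with retinoid X receptors. In adrenal cortex cells they are known targets of ACTH acting through cAMP, protein kinase A and CREB, and of angiotensin II and potassium acting through calcium, calmodulin kinases and MEF2, and they act on promoters of steroidogenic genes. Nr4a2 is also known as a regulator of catecholamine synthesis genes in dopamine neurons.

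Total reads assigned to genes ranged from 15184210 (12-week male) to 23551289 (P1 male). The normalized count is the read count divided by a size factor for each library, so 1 read equals 0.818 to 1.40 normalized counts. The tissue label was checked on defining genes: Star, the cholesterol carrier of steroid-making cells, had 47002 to 372882 normalized counts, and the chromaffin gene Th, the first enzyme of catecholamine synthesis, had 4970.4 to 7507. Y-linked transcripts were present in the library labelled P1 female: over 4 such genes the level was 15.6 to 28.1% of that in P1 male, whereas the median share was 0.0609% at 2 weeks and 0.0132% at 12 weeks. The members' fitted results that use P1 are therefore given with and without that library. Those of all other genes and lists are given only with it. Markers of neighbouring tissue also differed between pools.

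Because the 3 members moved together with age, their promoters are shown first. RefSeq gives each a 300-base window on GRCm38.p6 that runs from 250 bases before to 50 bases after an annotated start. Capitals mark the CRE half-site TGACG on either strand (CGTCA as printed when it lies on the other strand), the core of the site bound by CREB, the factor through which cAMP acts.
Nr4a1 promoter, chr15:101266596-101266895, plus strand: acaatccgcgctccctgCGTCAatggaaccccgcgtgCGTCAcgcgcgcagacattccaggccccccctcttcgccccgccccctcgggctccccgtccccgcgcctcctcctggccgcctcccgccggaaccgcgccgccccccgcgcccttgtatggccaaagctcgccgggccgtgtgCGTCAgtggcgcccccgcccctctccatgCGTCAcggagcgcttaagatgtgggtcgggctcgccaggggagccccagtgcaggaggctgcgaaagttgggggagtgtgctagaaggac
Nr4a2 promoter, chr2:57123954-57124253, minus strand: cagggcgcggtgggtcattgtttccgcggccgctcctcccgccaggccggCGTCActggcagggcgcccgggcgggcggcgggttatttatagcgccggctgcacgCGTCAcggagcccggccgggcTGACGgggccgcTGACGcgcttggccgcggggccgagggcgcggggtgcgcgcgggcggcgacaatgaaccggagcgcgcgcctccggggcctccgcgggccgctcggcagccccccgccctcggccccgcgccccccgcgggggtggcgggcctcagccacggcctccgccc
Nr4a3 promoter, chr4:48045055-48045354, plus strand: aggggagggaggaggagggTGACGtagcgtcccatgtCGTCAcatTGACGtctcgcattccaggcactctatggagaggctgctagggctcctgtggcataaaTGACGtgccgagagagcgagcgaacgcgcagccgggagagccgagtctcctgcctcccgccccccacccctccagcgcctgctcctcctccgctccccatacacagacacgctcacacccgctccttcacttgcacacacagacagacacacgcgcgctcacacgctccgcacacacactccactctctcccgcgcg

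Each of the 3 windows held 4 half-sites, and none of the half-sites overlapped another. Counted from the start, they began at -233, -213, -69 and -40 in Nr4a1, at -200, -144, -123 and -111 in Nr4a2, and at -231, -213, -205 and -147 in Nr4a3. Of 32851 RefSeq windows of this length outside chromosome 18, 20.8% held at least 1 half-site and 0.231% held 4 or more. The members' windows were 72.3%, 81.7% and 64.7% G or C, and windows of like content were not compared. At least 1 half-site was also found in 14 of 21 immediate early genes and 6 of 8 chromaffin genes with a window. The counts were 5 of 8 for targets of cAMP and CREB and 1 of 6 for steroidogenic genes. A gene was counted if any of its windows held a half-site, and some genes, such as Egr2 and Pde4b, had several windows. These counts per gene are therefore not on the same scale as the share of all windows. A link of the sites to the members' pattern was not tested. The full palindrome TGACGTCA was in none of the 3 windows and in 1.79% of all windows. The MEF2 site was found once, in Nr4a2, and in 3.19% of all windows, and the CArG box was found in none of the 3 and in 1.63% of all windows. The NBRE, AAAGGTCA, was in none of the 3 windows, in none of the 6 steroidogenic genes with a window in the RefSeq table, and in 1.51% of all windows. Of the 8 chromaffin genes with a window 1 held it, Ddc, at -73 in 1 of its windows. These are matches of letters in a short window, counted on both strands, and the data hold no measurement of binding.

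In the GENCODE M21 annotation of the same build, Nr4a1 spans chr15:101254269-101274795 on the plus strand, Nr4a2 spans chr2:57106830-57124003 on the minus strand, and Nr4a3 spans chr4:48045153-48086447 on the plus strand. All 3 are protein-coding, and no other gene of that annotation overlaps any of them. The RefSeq starts used for Nr4a1 and Nr4a3 lie inside the GENCODE genes, so the windows show one annotated start of each.

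Nr4a1 is the member most often linked to ACTH. It had 1275 normalized counts in the embryonic pool, 337.9 and 984.6 in the male and female pools of P1, 9913 and 6959.9 in those of 2 weeks, and 1174 and 8493 in those of 12 weeks. The high libraries were thus 3, both 2-week pools and the 12-week female pool, and the 12-week male pool lay among the embryonic and newborn values. In order from the lowest, the levels ran P1 male, P1 female, 12-week male, E18.5, 2-week female, 12-week female, 2-week male. Neighbours in that order were apart by more than counting error except 12-week male and E18.5 (ratio 1.09, 95% exact interval 0.998 to 1.18).

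Nr4a2, the member known for its part in dopamine neurons, was the least abundant. Embryonic glands gave 149.6 normalized counts, the male and female P1 pools 67.9 and 236, the 2-week pools 1679 and 1658, and the 12-week pools 502 and 2718. The same 3 libraries were high, and the order from the lowest was P1 male, E18.5, P1 female, 12-week male, 2-week female, 2-week male, 12-week female. The 2-week sexes were not apart beyond counting error (ratio 1.01, 0.949 to 1.08).

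Nr4a3, the third receptor, had the smallest ratio of highest to lowest library. Its normalized counts were 988 in embryos, then 639 (male) and 1176 (female) at P1, 3453 and 3365 at 2 weeks, and 2771 and 4292 at 12 weeks. Its order from the lowest was that of Nr4a2, and again only the 2-week sexes were not apart beyond counting error (ratio 1.03, 0.981 to 1.07). The 12-week male value lay between the P1 and the 2-week values, as it did for the other 2 members.

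**Figure D1:**
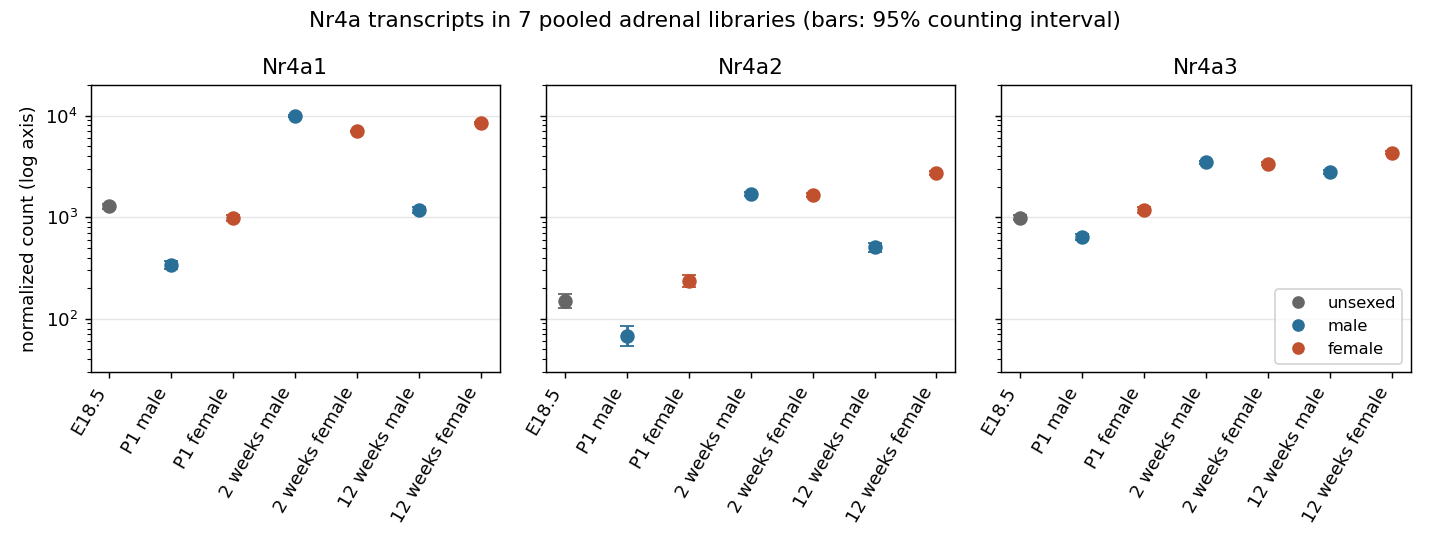
Normalized counts (log axis) of Nr4a1, Nr4a2 and Nr4a3 in the 7 libraries, coloured by sex, with bars for the 95% exact Poisson interval of the read count. The P1 male library is the lowest in each panel, and the 12-week male library (1174, 502 and 2771) lies below the 12-week female library (8493, 2718 and 4292).

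The change from P1 to 2 weeks was tested first. All 3 members rose, and both 2-week libraries were above both P1 libraries for each of them. Nr4a1 rose by a log2 difference of 3.85 ± 0.676 (SE), 14.4-fold, with an adjusted p of 0.0144 in limma, higher in 2 of 2 sexes. Nr4a2 rose by 3.71 ± 0.519, 13.1-fold (limma adjusted p 0.00749, higher in 2 of 2 sexes). Nr4a3 rose by 1.97 ± 0.229, 3.93-fold (limma adjusted p 0.00459, higher in 2 of 2 sexes). Of all genes analysed, 5.89% rose in this comparison, 10.5% fell and 16.4% changed in either direction. The rise of Nr4a1 was exceeded by that of 0.215% of genes, of Nr4a2 by 0.239% and of Nr4a3 by 1.14%.

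The rise was larger between the male pools, where Nr4a1 was 29.3-fold, Nr4a2 24.7-fold and Nr4a3 5.40-fold higher at 2 weeks. Between the female pools the ratios were 7.07, 7.02 and 2.86. The difference between the sexes in this rise was not tested. Without the library labelled P1 female the log2 differences were 4.03 (Nr4a1), 3.99 (Nr4a2) and 2.26 (Nr4a3). Without P1 male they were 3.66, 3.42 and 1.68. No member passed in either fit, each of which left P1 with a single library. With either library left out, 1 residual degree of freedom remained and the genes called fell from 2737 to 28 and 2 over the whole table. Without the 2-week male library the differences were 2.49 for Nr4a1 and 1.58 for Nr4a3, and neither passed. On the recovered reads of all 6 libraries edgeR gave adjusted p of 0.0169 (Nr4a1), 0.00908 (Nr4a2) and 0.00449 (Nr4a3).

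From 2 weeks to 12 weeks no member passed the test, and the male and female libraries went opposite ways. In males Nr4a1 was 8.44-fold, Nr4a2 3.34-fold and Nr4a3 1.25-fold lower at 12 weeks. In females the 3 members were 1.22-, 1.64- and 1.28-fold higher at 12 weeks. The fitted log2 differences over both sexes were -1.39 ± 0.676 (SE) for Nr4a1, -0.51 ± 0.519 for Nr4a2 and 0.02 ± 0.229 for Nr4a3, with limma adjusted p of 0.209, 0.542 and 0.971. In this comparison 5.40% of all genes rose and 9.89% fell, 15.3% in either direction, against 0 of the 3 members. Leaving out 1 library leaves an age with a single library and no spread of its own, so only differences are given. Nr4a1 and Nr4a2 gained a call in some such fits, and no conclusion is drawn from it. Without the 12-week female library, so that males alone stood for that age, the differences were log2 -2.56 (Nr4a1) and -1.29 (Nr4a2). Without the 2-week female library Nr4a1 was at -2.75. Without the 12-week male library the values were -0.23 (Nr4a1) and 0.26 (Nr4a2), and without the 2-week male library -0.041 and 0.55. Over this step macrophage markers rose in 9 of 12 and fell in 1, and liver markers fell in 8 of 10, skeletal muscle markers in 8 of 12 and erythroid markers in 4 of 8. Their part in the Nr4a values was not tested.

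From P1 to 12 weeks all 3 members rose, while 17.6% of all genes rose, 23.5% fell and 41.2% changed in either direction. The log2 difference was 2.45 ± 0.676 (SE) for Nr4a1 (5.47-fold, limma adjusted p 0.028), higher in 2 of 2 sexes. It was 3.19 ± 0.519 for Nr4a2 (9.15-fold, limma adjusted p 0.0041) and 1.99 ± 0.229 for Nr4a3 (3.98-fold, limma adjusted p 0.00117), each higher in 2 of 2 sexes. Without the library labelled P1 female the differences were 2.63 (Nr4a1), 3.48 (Nr4a2) and 2.28 (Nr4a3), and without P1 male 2.27, 2.91 and 1.70. Nr4a1 and Nr4a2 did not pass in either of these fits. Over all 6 libraries left out in turn Nr4a3 ran from 1.70 to 2.28. Without the 12-week female library Nr4a1 was at 1.28. All 10 adipocyte markers rose between these ages, and all 10 liver, 12 skeletal muscle, 8 kidney and 8 erythroid markers fell, and their part in the rise of the members was not tested.

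**Figure D2:**
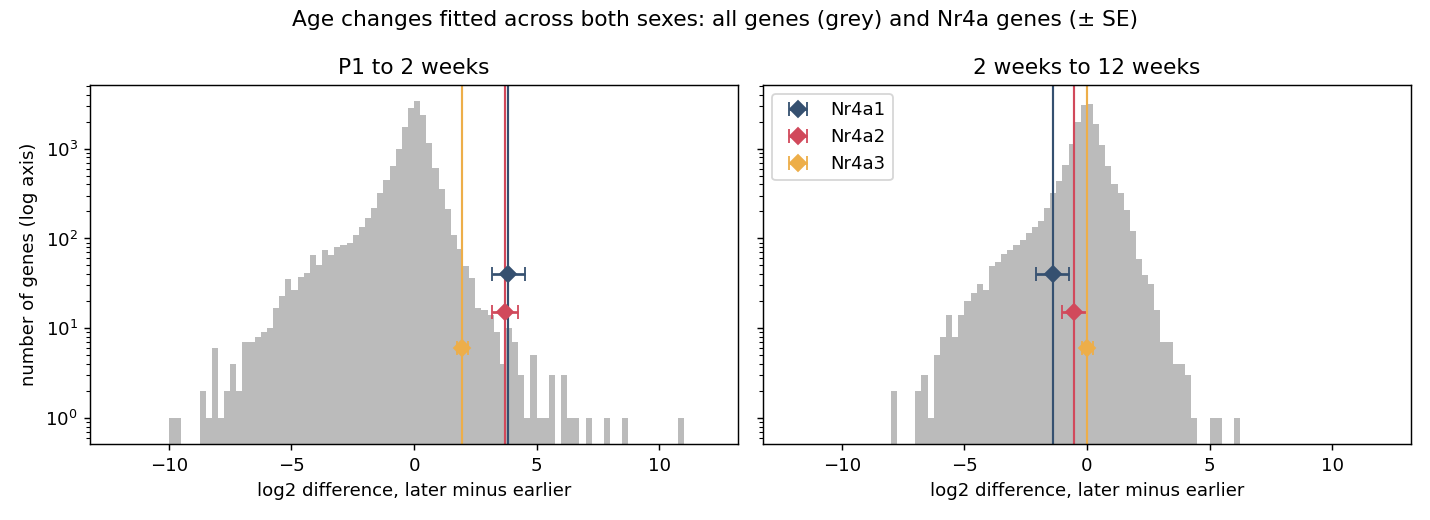
Number of genes (log axis) by their fitted log2 difference for the step between P1 and 2 weeks and for the later step to 12 weeks (grey, 16720 genes), with the 3 Nr4a genes as diamonds ± SE at heights chosen for legibility. At the earlier step the members lie in the right tail at 3.85, 3.71 and 1.97. At the later step Nr4a1 (-1.39) and Nr4a2 (-0.51) lie left of the middle, with 92.0% and 78.1% of genes above them. Nr4a3 (0.02) lies near the middle, with 46.0% above it.

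Tissue markers moved over the same interval. Of 10 adipocyte markers 9 rose from P1 to 2 weeks, and their summed level went from 2928 to 3129 normalized counts at P1 to 46340.1 and 51352 at 2 weeks, with none at 0 at 2 weeks. All 10 liver markers and all 8 kidney markers fell, the liver sum from 468969 and 312389 to 17269 and 42737. Skeletal muscle markers fell in 9 of 12, with sums of 88304 and 163696 at P1 and 515 and 13525 at 2 weeks. Macrophage markers fell in 7 of 12, with sums of 11446 and 12854 at P1 and 4918 and 6256 at 2 weeks. Erythroid markers fell in 2 of 8 (sums of 21884 and 24167, then 2338 and 9838) and exocrine pancreas markers in 4 of 9 (8580 and 566, then 650.3 and 700.5). Their part in the Nr4a rise was not tested. In whole glands, fewer cells of a type and less RNA per cell cannot be told apart.

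Around birth the members were compared between single libraries, without a test. Both comparisons share the E18.5 library. Nr4a1 was 3.77-fold lower in P1 male than at E18.5 (log2 -1.91, 95% exact interval -2.08 to -1.76) and 1.30-fold lower in P1 female (log2 -0.37, -0.49 to -0.25). Nr4a2 was 2.20-fold lower in P1 male but 1.58-fold higher in P1 female. Nr4a3 was 1.55-fold lower in P1 male and 1.19-fold higher in P1 female. Thus 2 of 3 members were at least 2-fold lower in P1 male, against 3.50% of all genes, and 0 of 3 in P1 female, against 6.12%. The P1 male library also held exocrine pancreas markers at a sum of 8580 normalized counts (887 at E18.5, 566 in P1 female) and kidney markers at 10130.2 (1450.2 and 2776), whose part was not tested.

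A sex difference over the 3 postnatal ages was tested in the same additive fit, and no member passed. The male minus female log2 difference was -1.29 ± 0.552 (SE) for Nr4a1, -1.40 ± 0.424 for Nr4a2 and -0.49 ± 0.187 for Nr4a3. Each had a limma adjusted p of 0.999 and was lower in males at 2 of 3 ages. The unadjusted p were 0.054, 0.0144 and 0.0362, and 521 of the 16720 genes had one under 0.05. In this comparison 0.00598% of all genes were called, which is 1 gene. Without the library labelled P1 female the differences were -1.17, -1.21 and -0.30. Over all libraries left out in turn they ran from -2.20 without a 2-week library to -0.51 without a 12-week library for Nr4a1, from -2.11 to -0.88 for Nr4a2 in the same way, and for Nr4a3 from -0.75 without a 2-week library to -0.30 without a P1 library.

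At single ages the sex difference was described without a test. At P1 Nr4a1 was 2.91-fold, Nr4a2 3.48-fold and Nr4a3 1.84-fold lower in the male library than in the library labelled P1 female. Of the members 2 of 3 were at least 2-fold lower in males, against 3.03% of all genes. Between these pools 9 of 9 exocrine pancreas and 7 of 8 kidney markers were at least 2-fold higher in males, and 6 of 10 adipocyte and 6 of 12 skeletal muscle markers at least 2-fold lower. Of 12 steroidogenic genes 5 were at least 2-fold higher and 1 at least 2-fold lower in males there. At 2 weeks Nr4a1 was 1.42-fold higher in males (log2 0.51, 0.47 to 0.55) and for the other 2 members the sexes were not apart beyond counting error. None of the 3 was 2-fold apart at 2 weeks, against 4.24% of all genes in either direction. At that age all 12 skeletal muscle, 10 liver and 8 erythroid markers were at least 2-fold lower in males. The part of these markers in the members' values was not tested at either age.

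In adults, at 12 weeks, all 3 members had fewer counts in the male pool. Nr4a1 was 7.23-fold lower in males (log2 -2.85, 95% exact interval -2.96 to -2.75), and 0.323% of all genes had a lower male-to-female difference. Nr4a2 was 5.41-fold lower (log2 -2.43, -2.60 to -2.28), with 0.526% of genes lower still. Nr4a3 was 1.55-fold lower (log2 -0.63, -0.71 to -0.55). Of the members 2 of 3 were at least 2-fold lower in males, against 3.98% of all genes, and 0 of 3 at least 2-fold higher, against 4.84%. Summed tissue markers at 12 weeks were, for male and female, 13390.0 and 11906 (macrophages), 28133 and 21928 (endothelium), 37508 and 29834 (adipocytes) and 120386 and 139148 (chromaffin cells). The sums were 8067 and 6224 for liver, 174.8 and 139.2 for skeletal muscle and 2693 and 1298 for erythroid cells, and kidney markers were at 0 in 7 of 8 in males and 6 of 8 in females. The part of any of these in the difference was not tested.

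**Figure D3:**
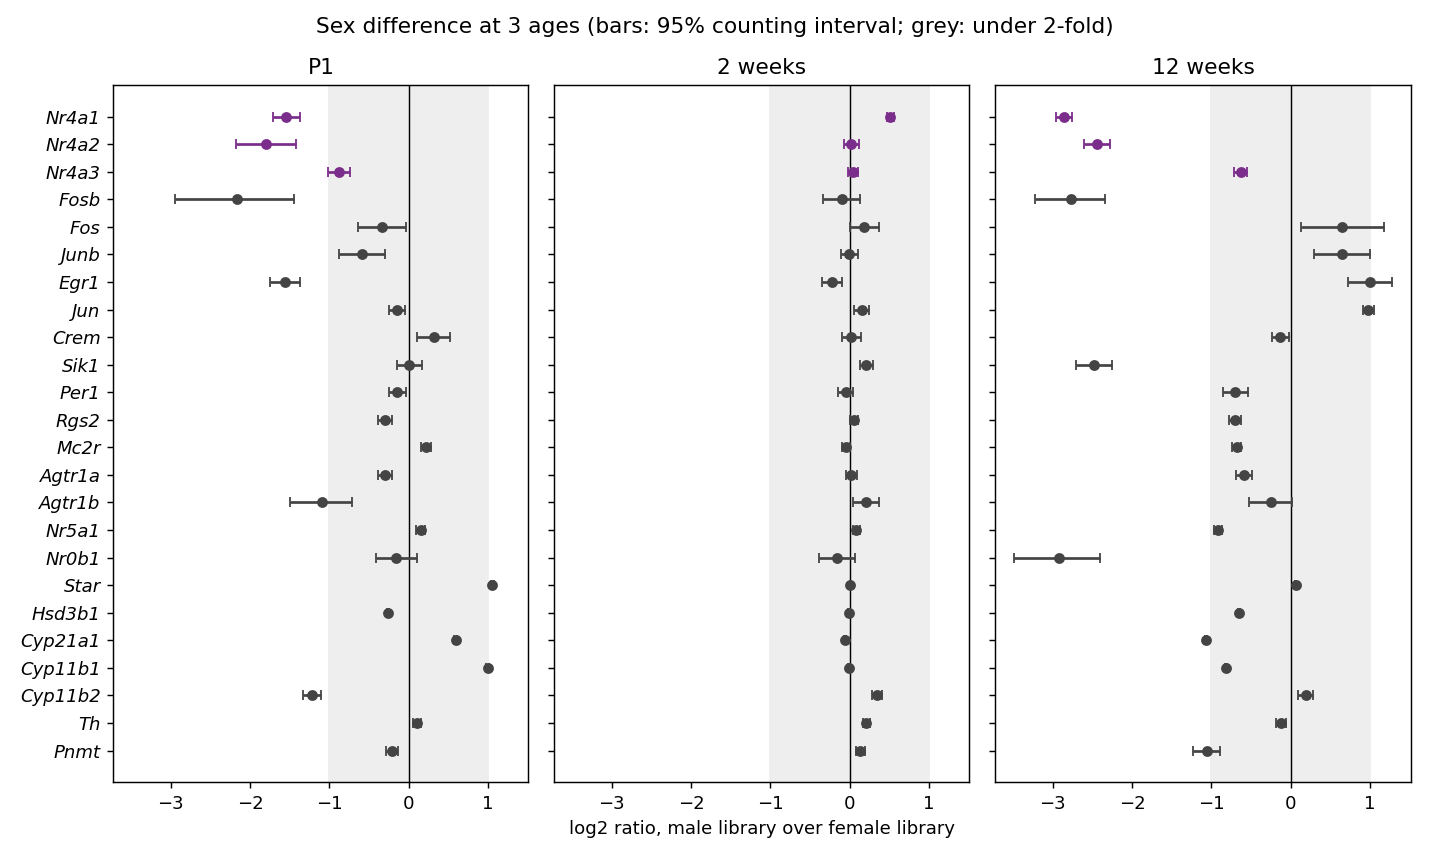
Log2 ratio of the male to the female library at P1, 2 weeks and 12 weeks for the Nr4a genes (purple) and genes of their pathway (black), without a pseudocount, with 95% exact counting intervals and the range under 2-fold in grey. At 2 weeks the points lie near 0, and at 12 weeks Nr4a1, Nr4a2, Fosb, Sik1 and Nr0b1 lie far to the left while Fos, Junb, Egr1 and Jun lie to the right.

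To compare levels between the members, counts were divided by exon length (3509 bases for Nr4a1, 4059 for Nr4a2 and 5987 for Nr4a3, the union of GENCODE M21 exons). The summed family level per kb was 565 in embryos, 219.8 and 535 in the male and female P1 pools, 3815 and 2954 in the 2-week pools, and 921 and 3807 in the 12-week pools. Nr4a1 made up 74.0% and 67.1% of that sum in the 2-week pools and 63.6% in the 12-week female pool, but 36.3% in the 12-week male pool and 43.8% in P1 male. It made up 64.3% in embryos and 52.4% in P1 female. Nr4a3 was the largest part in the 12-week male and P1 male libraries, with 50.2% and 48.6%, against 15.1% to 36.7% in the other 5. Nr4a2 stayed between 6.52% and 17.6%.

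**Figure D4:**
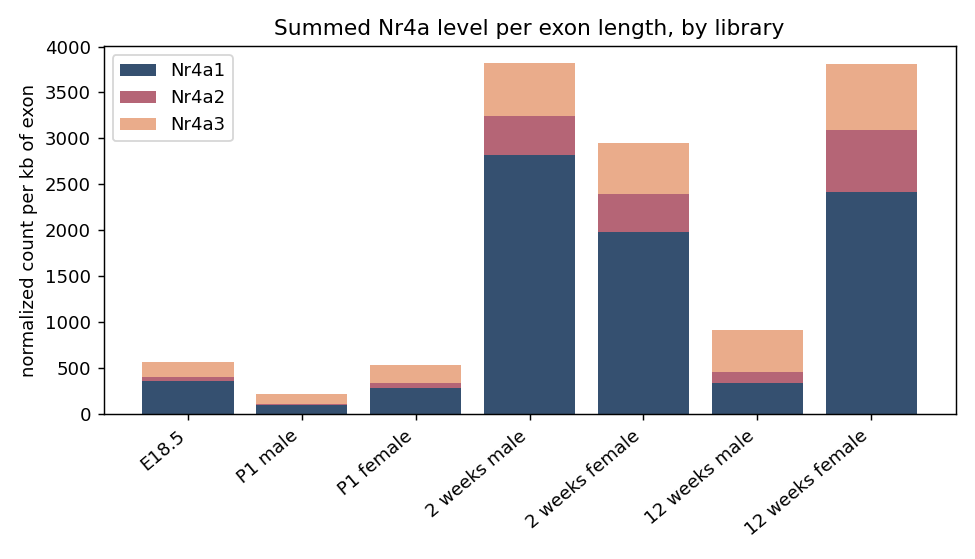
Summed level of Nr4a1, Nr4a2 and Nr4a3 in normalized counts per kb of exon for each library, stacked by gene. The sum is 3815 and 2954 in the 2-week libraries and 3807 in the 12-week female library and at most 921 in the other 4, with the Nr4a1 segment making most of the difference.

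Among all 49 nuclear receptor genes of the mouse, a list drawn up after the values were seen, Nr4a1 ranked 1 in 2-week male (2825 normalized counts per kb), ahead of Nr5a1, the steroidogenic factor that defines cortical cells (2273). It ranked 2, behind Nr5a1, in both later female pools, 3 in embryos, 8 and 22 in the female and male P1 pools, and 9 in the 12-week male pool. Nr4a3 ranked 4 or 5 in the 4 libraries from 2 weeks on, and 10 in embryos, with 21 and 13 in the male and female P1 pools. Nr4a2 ranked 7 or 8 in both 2-week libraries and 12-week female, but 23 in 12-week male and 28 to 39 earlier.

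The upstream pathway was read from lists of genes for each signal. Of 19 genes of ACTH and cAMP signalling, 4 rose and 0 fell from P1 to 2 weeks (Prkar2b, a regulatory subunit of protein kinase A, most, by log2 1.30, limma adjusted p 0.0173), with a list median of 0.13 against 0.00 for all genes. The ACTH receptor Mc2r had 4931 and 4247 normalized counts at P1 and 5112 and 5271 at 2 weeks (limma adjusted p 0.625). Its accessory protein Mrap had 6150.1 and 3537, then 6312 and 8148 (adjusted p 0.165 in limma). At 12 weeks Mc2r had 5282 in males and 8474 in females, and Mrap 5511 and 4985. No gene of this list was 2-fold apart between the sexes at 12 weeks.

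Of 18 genes of angiotensin and calcium signalling 2 rose from P1 to 2 weeks and 0 fell. They were the angiotensin receptor Agtr1b (log2 2.32, limma adjusted p 0.00693) and the potassium channel Kcnk9 (log2 1.41, limma adjusted p 0.0173). Agtr1b had 75.3 and 161 normalized counts at P1, 596 and 519 at 2 weeks, and 268 and 320.2 at 12 weeks (male, female). Agtr1a, the receptor form with the higher counts, had 1727 and 2128, then 2764 and 2728, then 1676 and 2527 (limma adjusted p 0.102 for the earlier step). Mef2c and Mef2d, factors that bind the MEF2 site, did not pass (log2 -0.33 and -0.12, limma adjusted p 0.372 and 0.639).

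The other immediate early genes did not all follow the members. Of 25 analysed, 5 rose from P1 to 2 weeks (Fos, Fosb, Fosl2, Junb and Btg2) and 1 fell (Klf6, log2 -0.56), with a list median of 0.25. From 2 weeks to 12 weeks 5 fell (Fos, Junb, Ier2, Ier3 and Btg2) and 1 rose (Jun, log2 1.25). Fos, a partner in the AP-1 factor, had 158 and 199.8 normalized counts at P1, 491 and 432 at 2 weeks, and 99.3 and 63.4 at 12 weeks (male, female). Junb, another AP-1 subunit, had 155 and 232, then 1344 and 1348, then 219.5 and 140.3. Both fell from 2 weeks to 12 weeks in both sexes (log2 -2.52 and -2.93, limma adjusted p 0.00332 and 0.00246), whereas each Nr4a member was higher in the 12-week than in the 2-week female pool; this contrast between genes was not tested.

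Fosb, an AP-1 subunit as well, had a pattern closer to the members. It had 17.2 and 77.3 normalized counts at P1, 265 and 284 at 2 weeks, and 68.5 and 467 at 12 weeks (male, female). It rose from P1 to 2 weeks by log2 2.87 (limma adjusted p 0.0225) and was 6.82-fold lower in males at 12 weeks. Egr1, a zinc finger factor, had 405 in 12-week male and 204 in 12-week female, so it was higher in males there, and the same direction held for Fos, Junb and Jun. Egr2, Egr3 and Atf3 were low, between 11.8 and 130.1 normalized counts in every library, and passed in no age comparison.

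Of 10 targets of cAMP and CREB 3 rose from P1 to 2 weeks (Crem, Rgs2 and Fosl2) and 0 fell, and from 2 weeks to 12 weeks 1 rose (Crem) and 5 fell (Ppargc1a most, log2 -2.18). Crem, a member of the CREB family whose short form blocks the response, had 418 and 337 normalized counts at P1, 956 and 943 at 2 weeks, and 1706 and 1871 at 12 weeks (male, female), with the 12-week sexes 1.10-fold apart. Sik1, a kinase that restrains CREB coactivators, had 601 and 598 at P1, 2147 and 1856 at 2 weeks, and 257 and 1437 at 12 weeks. Its age steps did not pass (limma adjusted p 0.102 and 0.104), and at 12 weeks it was 5.59-fold lower in males. Per1, a clock gene with a CREB site, had 1261 and 1393, then 1634 and 1692, then 710.3 and 1152, and fell from 2 weeks to 12 weeks (log2 -0.88, limma adjusted p 0.03). At 12 weeks 3 of the 10 were at least 2-fold lower in males, Sik1, Nfil3 (2.82-fold) and Fosl2 (2.28-fold), and 0 were higher.

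Among receptors that pair with or oppose the Nr4a proteins, 1 rose (Nr0b2) and 2 fell (Rxra and Nr2f2) of 9 from P1 to 2 weeks. Rxra, the retinoid X receptor that can pair with Nr4a1 and Nr4a2, had 2043 and 1886 normalized counts at P1 and 1259.6 and 1268 at 2 weeks (log2 -0.64, limma adjusted p 0.0306). Nr3c1, the glucocorticoid receptor, which can repress Nr4a activity, had 2483 and 2718, then 2844 and 2890.2 (limma adjusted p 0.683). Nr0b1 (Dax1), a repressor of Nr5a1 and Nr4a activity, had 46.1 normalized counts in 12-week male and 349.6 in 12-week female, 7.58-fold lower in males, with 274 and 305 at 2 weeks. Nr5a1 had 6146 and 11600.0 normalized counts at 12 weeks, 1.89-fold lower in males.

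Steroidogenic genes, known targets of these receptors, were compared next. Of 12, 3 rose and 0 fell from P1 to 2 weeks: Hsd3b6 (log2 3.28, limma adjusted p 0.00471), a hydroxysteroid dehydrogenase of the zona glomerulosa, Cyp11b2 (1.51, 0.0365), aldosterone synthase, and Hsd3b1 (1.28, 0.0398). Star had 97447 and 47002 normalized counts at P1 and 169893 and 169135 at 2 weeks (log2 1.32, limma adjusted p 0.0572). Cyp11a1, the side-chain cleavage enzyme, had 50055 and 21943, then 38524 and 40926 (limma adjusted p 0.647). Cyp21a1 and Cyp11b1, later enzymes of corticosterone synthesis, did not pass either (log2 -0.11 and -0.17, limma adjusted p 0.886 and 0.819).

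In the 12-week libraries, where Nr4a1 was 7.23-fold apart, Star was 1.04-fold higher and Cyp11b2 1.14-fold higher in males. Cyp21a1 (log2 -1.07), Cyp11b1 (-0.82) and Hsd3b1 (-0.65) were lower in males. Hsd3b6 went the other way, with 1699 normalized counts in males and 556 in females. Of the 12 genes 1 was at least 2-fold higher and 1 at least 2-fold lower in males.

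Chromaffin genes were looked at because Nr4a2 acts on catecholamine genes elsewhere. Of 12 markers 2 rose (Chgb and Scg2) and 0 fell from P1 to 2 weeks, and 4 fell from 2 weeks to 12 weeks. Th had 6647 and 6180.2 normalized counts at P1, 7507 and 6511 at 2 weeks, and 4970.4 and 5396 at 12 weeks (male, female), and passed in no age comparison. Pnmt, which makes adrenaline, had 2378 and 2761, then 4123 and 3758, then 577 and 1206, and fell from 2 weeks to 12 weeks (log2 -2.24, limma adjusted p 0.00475).

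The genes whose pattern was most like that of each member were found by Pearson's r of log2 values over the 7 libraries among 12254 genes averaging 100 or more normalized counts. These points share ages and size factors, and r is given as a description. For Nr4a1 they were Cisd3 (r = 0.995, Spearman's rho 0.893), Ss18 (0.986, rho 0.821), Hspa14 (0.975, rho 1), Oca2 (0.969, rho 1) and Fbxl21 (0.967, rho 0.714). For Nr4a2 they were Atxn7 (0.991), Napg (0.990), Kcmf1 (0.988), Itpr2 (0.984) and Epdr1 (0.983). For Nr4a3 they were Stoml2 (0.997), Zcchc16 (0.996), Tnr (0.993), Msrb2 (0.992) and Atp6v1d (0.989). Pearson's r does not weigh the size of a change. Ss18 ran from 1837 (P1 male) to 2552 (12-week female) normalized counts, whereas Nr4a1 ran from 337.9 (P1 male) to 9913 (2-week male). Between the members r was 0.954 (Nr4a1 with Nr4a2), 0.890 (Nr4a1 with Nr4a3) and 0.976 (Nr4a2 with Nr4a3). Fosb had r of 0.921, 0.975 and 0.923 with Nr4a1, Nr4a2 and Nr4a3, Sik1 0.805, 0.648 and 0.485, and Fos 0.327, 0.213 and 0.145. Fosb was not the closest pathway gene. Rgs2, a target of cAMP and CREB, was above it for each member, with r of 0.958, 0.979 and 0.9496. Fosl2 (0.858, 0.954 and 0.945) was above Fosb for Nr4a3 only.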

How the data were processed

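Total RNA of 7 pooled adrenal samples was sequenced. Per the submitters' processing notes, CASAVA 1.8.2, HISAT2 2.1.0, HTSeq 0.9.1, DESeq2 2.11.40.6 and the build mm10 were used. The annotation and the use of strand are not given in the sources used here. The authors deposited 1 table of normalized counts, a signal per gene that equals whole reads divided by 1 size factor per library: 100% of the values were whole within 0.01 reads once multiplied by that factor.

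Log2(normalized count + 1) of the 16720 genes with a mean of at least 10 was fitted in limma 3.58.1 (R 4.3.3) over the 6 postnatal libraries, with age and sex as additive terms, 2 residual degrees of freedom, eBayes with a trend and two-sided p-values adjusted by Benjamini-Hochberg over all genes (threshold 0.05). Such log2 differences understate changes of low genes. A test on the recovered reads with edgeR 4.0.16 called 2795 genes from P1 to 2 weeks (limma 2737), 2396 for the step to 12 weeks (2557) and 6754 between P1 and 12 weeks (6881), and DESeq2 1.42.0 was a further alternative. Pairs of single libraries were described by their ratio with a 95% exact (Clopper-Pearson) interval on reads, which covers counting error only, since the reads are not known to be independent molecules. The limma, edgeR and DESeq2 fits were tested on simulated reads, for the P1 to 2 weeks comparison only.

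The members and gene lists were chosen with earlier results of these data known. Genes named are the 3 members, 28 pathway genes listed by name, those with the largest called change of a list, and 5 per member by likeness; others were named after their values were seen. The 3 members matched RefSeq and GENCODE by symbol. Alternatives covered pseudocounts of 0.1 and 10, filters, TMM and equal-total scaling, the tools above and each library left out.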

Additional observations from a re-analysis of the deposited data

Results flagged for a closer look

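Opposite directions between groups, each beyond counting error, drew attention to 3 comparisons. None of these differences between groups was tested, since each group had 1 library, and each value is a log2 difference of 2 libraries.

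From 2 weeks to 12 weeks all 3 members went down between the male pools and up between the female pools. Nr4a1 went by -3.08 in males and 0.29 in females, Nr4a2 by -1.74 and 0.71, and Nr4a3 by -0.32 and 0.35.

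The male minus female difference of Nr4a1 was -1.54 at P1, -2.85 at 12 weeks and, with the opposite sign, 0.51 at 2 weeks. Nr4a2 and Nr4a3 were within counting error at 2 weeks.

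From E18.5 to P1, Nr4a2 went by -1.13 to the male and by 0.66 to the female library, and Nr4a3 by -0.63 and 0.25. Both share the E18.5 library, and Y-linked transcripts were present in the library labelled P1 female.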

How the results depend on the processing

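With 1 pool per group, precision is limited by 2 residual degrees of freedom rather than by depth. No paired analysis was possible because each group holds 1 library, so the groups share fewer than 2 replicate numbers; the additive fit of age and sex already compares ages within a sex. Of 180 tested member values under other settings, 155 were classed as the same, 19 lost the call, 3 gained it and 3 turned direction by more than the SE. A smaller turn counted as the same where neither value was called. Nr4a3 from 2 weeks to 12 weeks with equal total reads (-0.15) was such a value. The 3 gains came from fits that left a single library at 1 age. Of 60 untested member values 59 moved by less than their error. The cause of these changes was not tested.

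Without a filter on low values limma called 0 genes from P1 to 2 weeks (6431 at an unadjusted p under 0.05; edgeR 2795), 0 for the later step (6036; edgeR 2396) and 0 for sex (783), and the members' P1 to 2 weeks differences of 3.85, 3.71 and 1.97 (Nr4a1, Nr4a2, Nr4a3) and P1 to 12 weeks differences of 2.45 (Nr4a1) and 3.19 (Nr4a2) lost the call. Without a trend limma called 1672 genes in the first step, 1661 in the second and 0 for sex (638 unadjusted), and Nr4a1 lost its call at 3.85 and 2.45. For sex, edgeR called 0 genes (667 unadjusted) and DESeq2 9.

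Leaving out each library gave 2 to 4461 genes from P1 to 2 weeks, the fewest without P1 male, with 2.49 to 5.20 for Nr4a1, 2.64 to 4.77 for Nr4a2 and 1.58 to 2.37 for Nr4a3. For 2 weeks to 12 weeks it gave 421 to 3035 genes, with -2.75 to -0.041 for Nr4a1, -1.58 to 0.55 for Nr4a2 and -0.38 to 0.41 for Nr4a3. Nr4a2 turned positive without 2-week male (0.55) or 12-week male (0.26), and Nr4a3 negative without 2-week female (-0.38) or 12-week female (-0.088). For P1 to 12 weeks it gave 3207 to 6271 genes, 1.28 to 3.62 for Nr4a1 and 2.42 to 3.97 for Nr4a2, and for sex 0 to 51 genes.

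Counts of genes at least 2-fold apart depended on the low values. With pseudocount 10, no filter, and a mean of at least 50, they were 878, 3933 and 624 for E18.5 to P1 male (1405 as reported), 663, 4550 and 473 for sex at P1 (1134), 320, 2331 and 325 for sex at 2 weeks (709), and 739, 5215 and 814 for sex at 12 weeks (1476). For E18.5 to P1 female (2200) no filter gave 5793 and a mean of at least 50 gave 1204. With equal totals the Nr4a1 sex difference at 2 weeks was 0.57. That scaling shifted the median of all genes by -0.15 between P1 and 12 weeks and by -0.20 between 2 and 12 weeks. Spearman's rho of Nr4a1 with Cisd3 was 0.893.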
